A study of Mus musculus and Mus musculus
Oryx dammah with 30 samples.

Results

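The 10 genes described here are maternal effect genes of the mouse oocyte, most of which code for the subcortical maternal complex or for its partners. They were chosen by gene name (Nlrp5, Ooep, Tle6, Khdc3, Padi6, Nlrp2, Nlrp4f, Zbed3, Npm2 and Zar1), and each name matched 1 gene. They are thus 10 of the 53023 genes listed for the four-cell and the replication experiments and 10 of the 55364 genes listed for the two-cell experiment. In mm10, the core genes lie on 3 chromosomes, Nlrp5 at chr7:23385889-23441922 (plus strand), Ooep at chr9:78376109-78378725 (minus strand), Tle6 at chr10:81590904-81601073 (minus strand) and Khdc3 at chr9:73101836-73104438 (plus strand). The others are Padi6 at chr4:140727355-140742643 (minus strand), Nlrp2 at chr7:5298547-5351035 (minus strand), Nlrp4f at chr13:65177111-65205977 (minus strand), Zbed3 at chr13:95323612-95337841 (plus strand), Npm2 at chr14:70647302-70659244 (minus strand) and Zar1 at chr5:72576806-72581254 (minus strand).

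A maternal effect gene is one whose product the mother loads into the egg and on which the embryo depends before its own genome is active. The subcortical maternal complex is an assembly of such proteins that lies beneath the cell membrane of the egg and the cleaving embryo. Its core is built from NLRP5 (also called MATER), OOEP (FLOPED), TLE6 and KHDC3 (FILIA). In mouse, most inherited mRNAs are degraded around the two-cell stage while transcription of the embryo's genome begins, so the mRNA measured in an embryo is what is left of the oocyte's store together with anything newly made.

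The embryos were nuclear transfer (NT) embryos. Recipients were embryos of in vitro fertilization, from C57BL/6 and DBA/2 mice. The donor nuclei came from C2C12 cells, a myoblast line of the C3H strain. All groups shared the donor line and culture after the transfer in 0.1 μg/ml demecolcine, a drug that blocks microtubules and was used to hold the cell cycle, and the mRNA of the recipient and of the donor nuclei was measured together. For the four-cell experiment, recipients were in demecolcine from 40 hours post insemination (hpi), so that they were arrested before the transfer, and NT embryos were cultured from 46 to 70 hpi with or without α-amanitin, a toxin that blocks RNA polymerase II, and 3 libraries of each kind were made from pools of 3 embryos. Two-cell NT embryos were cultured from 21 to 45 hpi (early) or from 30 to 54 hpi (late), with or without α-amanitin, and 6 libraries of each kind were made from pools of 5 embryos. Per the study's methods two-cell recipients were in demecolcine from 21 hpi, thus from the transfer itself in the early and before it in the late window. The replication experiment had the groups D and DR, 3 libraries each from pools of 4 embryos without α-amanitin, and the labels do not say which letters stand for replication. Its nuclei were transferred at 40 or at 46 hpi, before or after the recipient's DNA replication, and per the labels the transfers at 40 to 43 hpi were cultured to 64 hpi. The remaining samples of the series, NT embryos with Oryx dammah cells, were not analysed here.

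Libraries are called by their column names. In the two-cell table these are Am1 to Am3 and RAm1 to RAm3, read as the libraries with α-amanitin, and NT1 to NT3 and r1, r2 and R3, read as those without it. The R columns name no treatment and were assigned because the 6 other columns complete the 6 libraries labelled as treated. The names do not say which set is early and which late, so the 4 sets of 3 columns are called NT, Am, R and RAm, and NT was compared with Am and R with RAm. The study's figure legends call the replicates independent, and p-values measure the spread between these pools.

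Values are FPKM, reads on a gene divided by its length and by the counted total, as deposited, and can be compared between genes of a library. Total reads on genes were 1136771 to 3101002 per four-cell library, about 2603946 to 19181387 in the replication experiment and about 4712268 to 10503779 in the two-cell experiment. Between 6 and 10 of 10 markers of the preimplantation embryo had an FPKM of at least 1 in every library, and at most 1 of 8 cumulus cell markers did. Of 10 markers of the donor myoblast, 4 to 8 did. One library of group D, D1, stood apart: Zscan4d, a gene of the two-cell stage burst, had an FPKM of 472 there and of at most 1.06 in the other 5 libraries of that experiment.

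The stretch of 100 bases before the start site is shown for the 4 genes whose RefSeq start (GRCm38.p6) lay within 10 bases of the gene bound used for the FPKM, to show the reference promoters of genes that moved together in the two-cell data below. Capitals mark E-boxes, CANNTG on either strand, the motif of basic helix-loop-helix factors. They lie at chr7:23385789-23385888 on the plus strand (Nlrp5), chr4:140742644-140742743 on the minus strand (Padi6), chr7:5351036-5351135 on the minus strand (Nlrp2) and chr13:95323505-95323604 on the plus strand (Zbed3).
Nlrp5: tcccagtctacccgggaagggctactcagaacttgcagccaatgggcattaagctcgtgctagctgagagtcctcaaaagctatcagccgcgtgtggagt
Padi6: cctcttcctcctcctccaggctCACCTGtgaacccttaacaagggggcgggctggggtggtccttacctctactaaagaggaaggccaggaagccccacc
Nlrp2: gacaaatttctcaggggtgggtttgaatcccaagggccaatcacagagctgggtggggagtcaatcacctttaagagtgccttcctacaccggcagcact
Zbed3: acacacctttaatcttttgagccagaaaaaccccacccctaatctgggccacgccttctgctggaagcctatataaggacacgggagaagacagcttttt
Of the 9 genes with an entry (all but Npm2), 4 held an E-box in these 100 bases (Zar1, Ooep, Khdc3 and Padi6), against 34.4% of all 32851 promoters. The homeobox motifs TAATTG and TAATTA, searched on both strands, were in 0 of the 9 and in 4.04% of all promoters.

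At the four-cell stage Khdc3 was the most abundant of the 10 genes without α-amanitin. KHDC3, an RNA-binding KH domain protein, is linked to genome stability in the embryo. Its FPKM was 36.8 in S15, 141 in S17 and 244 in S7 without α-amanitin, and 37.3 in S16, 14.2 in S18 and 25.5 in S8 with it. The libraries S17 and S7 lay above all treated libraries, whereas S15 lay within their range. The untreated mean was 140 ± 103 (SD, n = 3) and the treated mean 25.6 ± 11.6 (SD, n = 3), a log2 change (without minus with, on log2(FPKM + 1), as everywhere below) of 2.14 ± 0.64 (SE). Its adjusted p of 0.0633 (limma, Benjamini-Hochberg over 9884 genes tested) did not pass 0.05. When library S15 was left out the change was 2.91 with an adjusted p of 0.0359.

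Ooep, which codes for a small KH domain protein of the core, had its highest values in the same libraries. Its FPKM was 0.82 in S15, 3.58 in S17 and 16.6 in S7, against 0.45 in S16, 0.82 in S18 and 2.36 in S8. The groups overlapped, and the log2 change of 1.35 ± 0.78 (SE) had an adjusted p of 0.288 by limma. Ooep had an FPKM of at least 1 in 2 untreated and 1 treated library, and the filter on low values (below) asked for 3. It thus entered the test through the untreated libraries, where its mean was higher. Among Khdc3, Nlrp5, Padi6 and Npm2, which reached an FPKM of 1 in every four-cell library, only Khdc3 had an estimate above 0.

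The other genes of the core had higher means with α-amanitin. Nlrp5, whose product is a leucine-rich repeat protein needed for development past the two-cell stage, had an FPKM of 2.63, 1.80 and 1.91 in S15, S17 and S7 and of 4.46, 3.81 and 8.31 in S16, S18 and S8. It was the 1 gene of the 10 whose groups did not overlap, with all treated libraries higher, a separation in that direction that 7.56% of all genes tested showed. Its log2 change was -1.02 ± 0.43 (SE), with an unadjusted p of 0.0424, an adjusted p of 0.155 (limma) and an exact permutation p of 0.1, the smallest that 3 against 3 libraries can give. Tle6, a co-repressor family protein of the core, had 2.56, 0.53 and 1.35 without and 2.51, 2.28 and 9.17 with α-amanitin, and its groups overlapped at a log2 change of -1.06 ± 0.56 (SE).

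The partners and the oocyte nuclear protein were close between the groups or spread widely. Padi6, a peptidylarginine deiminase of the oocyte's cytoplasmic lattices, had an FPKM of 10.2 to 19.6 without and 14.2 to 29.2 with α-amanitin. Npm2, nucleoplasmin, a histone chaperone of the egg, was 21.6, 21.6 and 21.9 in the untreated libraries and 20.9, 28.9 and 75.3 in S16, S18 and S8. The untreated libraries thus differed by little for Npm2, while 1 treated library, S8, lay far above the others. Nlrp4f, an Nlrp protein that binds the complex, was 0.24 to 2.61 without and 2.60 to 3.18 with α-amanitin, and Zbed3, a zinc finger protein that also joins it, was 0.98 to 5.90 and 3.04 to 7.90.

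Zar1 and Nlrp2 were close to the limit of detection at the four-cell stage. Zar1, which codes for an RNA-binding protein that holds maternal mRNAs in the oocyte, had 1 read in S8 and in S7 and 0 reads in the other 4 libraries. Nlrp2 had 14 reads (FPKM 1.75) in S15, 1 read in S8 and 0 in the others. A count of 0 allows up to 3 reads, worth an FPKM of 0.279 to 0.762 for Zar1 and of 0.276 to 0.752 for Nlrp2 at these depths, by counting error only. Neither gene passed the filter on low values (3 libraries or more with an FPKM of 1 or more), so no test was made. Of the 8 genes tested, 0 passed an adjusted p of 0.05 in the four-cell experiment by limma, in either direction, and 2 (Khdc3 and Nlrp5) had an unadjusted p under 0.05. Among all genes tested, 11.1% were called higher and 1.13% lower without α-amanitin, and 28.9% had an unadjusted p under 0.05. Of the 8, Tle6, Nlrp4f and Zbed3 would not have passed the filter without the treated libraries, in which their means were higher. Ooep would not have passed it without the untreated ones, in which its mean was higher. Where estimates of these genes are printed, they are not read as a direction. The test by limma-voom on whole reads, an alternative added after the data were seen, also called 0 of the 8. The four-cell table lists 0 spike-ins, so its values could not be set on a spike-in scale.

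**Figure D1:**
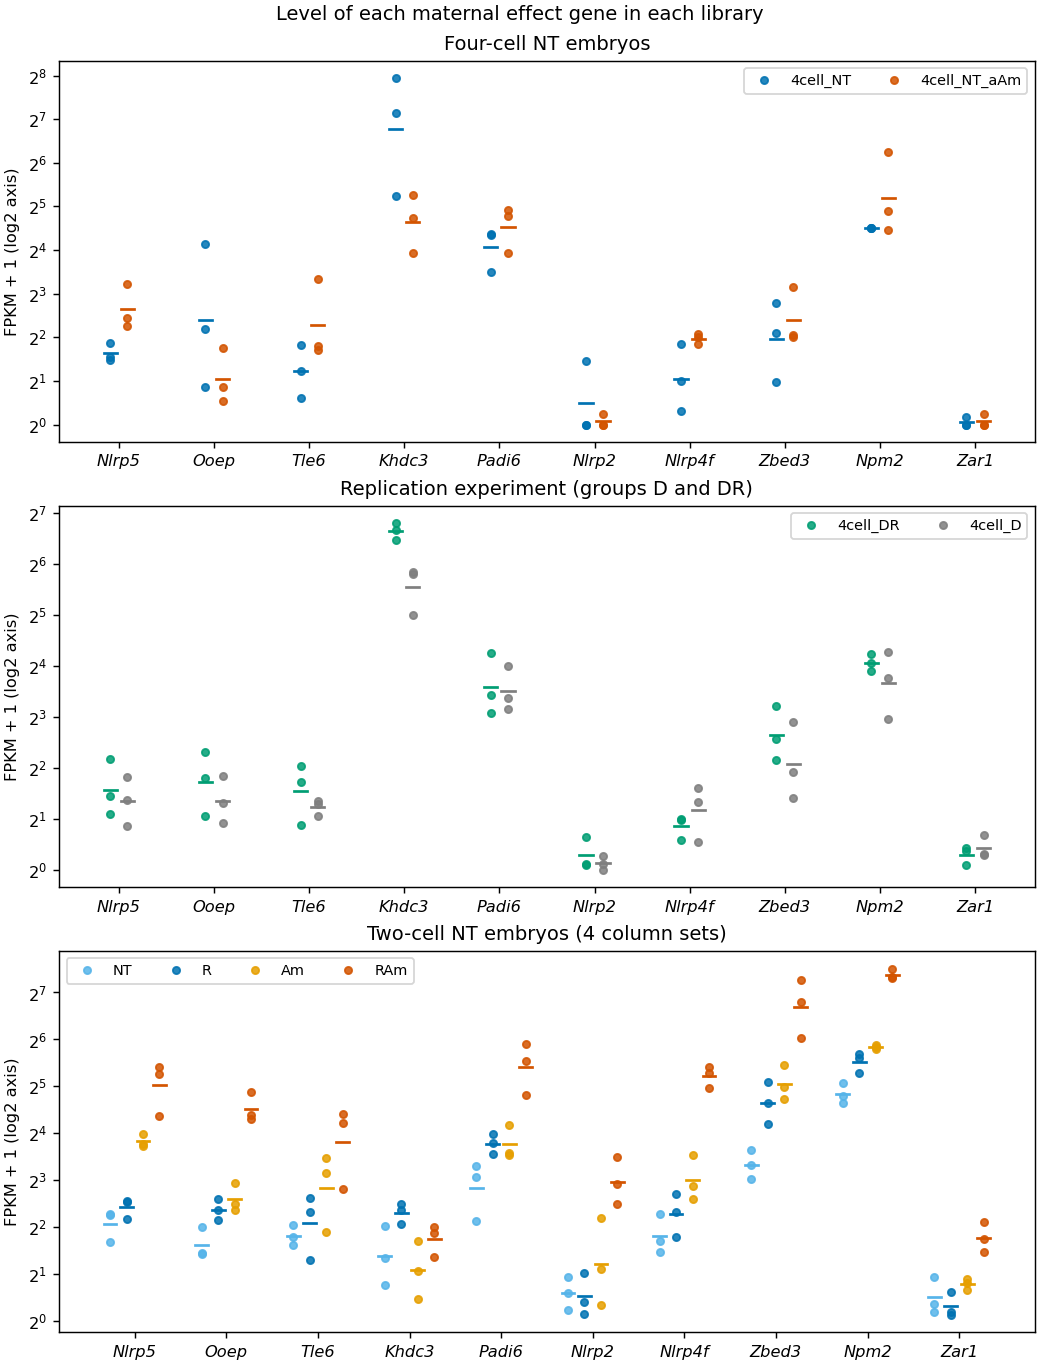
Level of each gene in each library, as FPKM + 1 on a log2 axis, in the four-cell (upper), replication (middle) and two-cell (lower) experiments. Points are libraries (3 per group or column set) and bars are means on the log scale. Khdc3 stands highest in the untreated four-cell libraries and in D and DR, and for 9 of 10 genes the 3 RAm libraries lie above all R libraries.

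Within the tables, different genes took most of the summed FPKM of the 10. Khdc3 made up 39.2% to 81.4% of the sum in untreated four-cell libraries, 45.9% to 72.7% in D and DR, and 1.04% to 5.97% in the untreated two-cell libraries. Its level in one table cannot be set against that in another, because of a gene that overlaps it (below), and the shares of the other genes carry the same limit. In untreated two-cell embryos the sum was led by Npm2, with 42.2% to 51.9%, followed by Zbed3 with 13.8% to 27.6%. The tables were normalized separately, so no test was made between them, and means of the other 9 genes are set side by side only. Reads came out whole for 100% of four-cell values and 40.3% to 50.5% in the other tables, so the counting was not the same. No share over all genes is given for the counts that follow, so they are not set against a background.

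The mean FPKM of 6 of these 9 was higher in untreated two-cell than in untreated four-cell NT embryos (Zar1, Nlrp5, Tle6, Nlrp4f, Npm2 and Zbed3), and that of Ooep, Padi6 and Nlrp2 was lower. Zbed3 had a mean of 17.0 ± 9.98 (SD, n = 6) at the two-cell and 3.40 ± 2.46 (SD, n = 3) at the four-cell stage, and Npm2 36.5 ± 10.8 and 21.7 ± 0.15. The four-cell mean of Ooep, 7.02, rested on S7 (16.6), and that of Nlrp2 on S15 alone, the other libraries being at 0. With α-amanitin, the mean of all 9 was higher at the two-cell stage, with Ooep at 13.8 against 1.21, and of 8 once each library was rescaled to the same sum over the genes that passed the filter in all tables, where Padi6 turned. For Padi6 this rested on RAm (mean 43.9), since the mean of Am, 12.9, was below that of the treated four-cell libraries, 23.3. Against the D group, 8 of the 9 had the higher mean in untreated two-cell embryos, and 7 after that rescaling, where Zar1 turned. Against DR it was 8 on both scales, Padi6 being the exception in both groups.

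**Figure D2:**
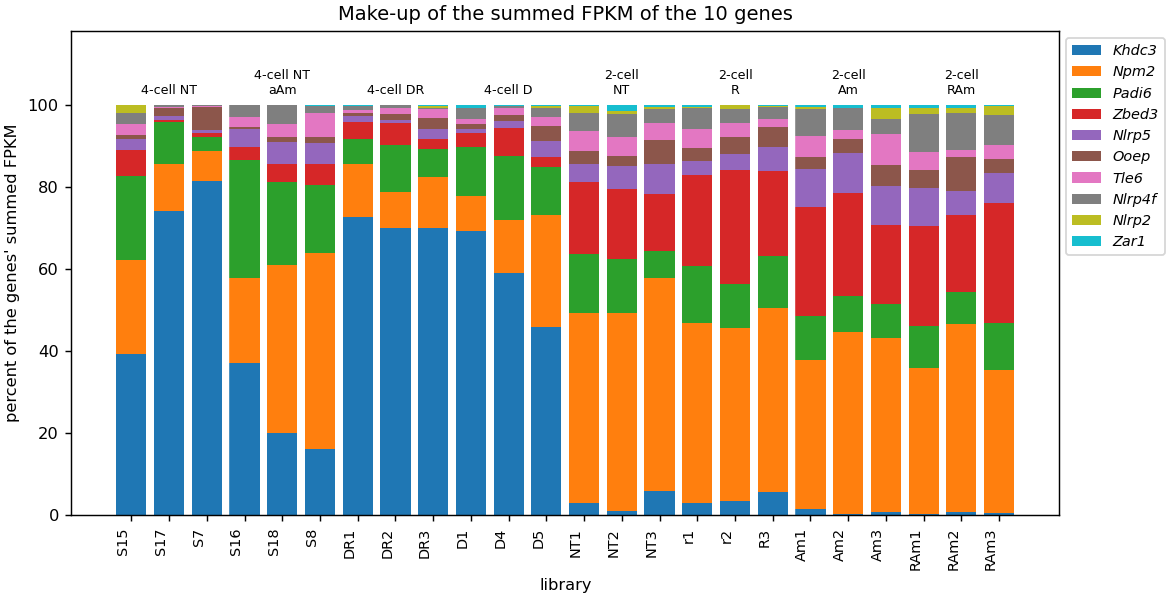
Share of each gene in the summed FPKM of the 10 genes, in percent, 1 bar per library. Khdc3 takes 39.2% to 81.4% of the sum in untreated four-cell libraries and 0.32% to 5.97% in the two-cell libraries, where Npm2 takes 34.9% to 51.9%. Shares are not comparable between tables, since how reads on Khdc3 were assigned in each is not given.

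The levels of Khdc3 in different tables carry a limit of their own. Khdc3 (chromosome 9, 73101836 to 73104438, mm10, plus strand) shares 790 of its 2050 exonic bases with Gm20509, a gene annotated across both on the same strand, and the other 226 exonic bases of Gm20509 lie in Rsl24d1, a ribosome biogenesis gene. Gm20509 was listed at 0 in all 6 four-cell libraries, but at 80.2 to 172 in D and DR and at 5.36 to 70.4 in the two-cell libraries. How reads on the shared bases were assigned in each table is not given in the sources used here, so the level of Khdc3 in one table cannot be set against that in another. Rsl24d1 had an FPKM of 212 to 401 in the four-cell libraries, 191 to 309 in D and DR and 4.41 to 296 in the two-cell libraries. Npm2 shares 39 exonic bases with Xpo7, and Nlrp2 shares 105 with Gm18757 on the opposite strand, whose FPKM was at most 0.59.

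**Figure D3:**
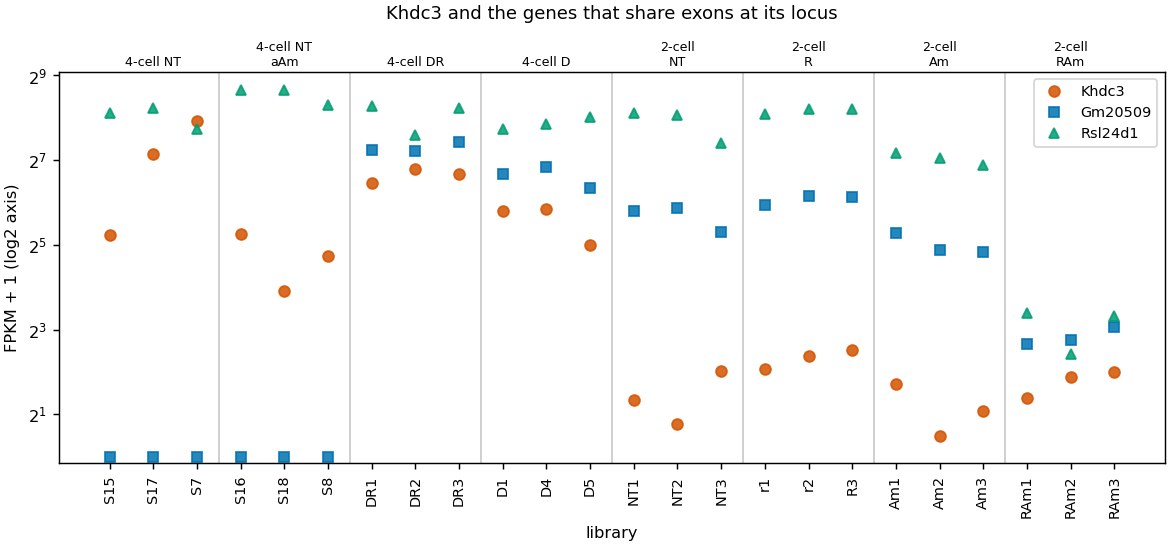
FPKM + 1 (log2 axis) of Khdc3, of Gm20509, which overlaps it, and of Rsl24d1, which Gm20509 also overlaps, in each library. Gm20509 is at 0 in the 6 four-cell libraries only. Khdc3 is at most 4.69 in every two-cell library and at least 14.2 in every other one, values that cannot be compared between tables.

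The order of the genes by mean FPKM was resolved for few neighbours. In untreated four-cell embryos the order was Khdc3, Npm2, Padi6, Ooep, Zbed3, Nlrp5, Tle6, Nlrp4f, Nlrp2 and Zar1, and ranges were separate for 2 of 9 neighbouring pairs, Khdc3 over Npm2 and Npm2 over Padi6. In the two-cell column set R the order was Npm2, Zbed3, Padi6, Nlrp5, Ooep, Khdc3, Nlrp4f, Tle6, Nlrp2 and Zar1. There the ranges were separate between Npm2 and Zbed3, Zbed3 and Padi6, Padi6 and Nlrp5, and Tle6 and Nlrp2. Nlrp2 and Zar1 were the lowest 2 genes in all untreated groups, with overlapping ranges except in D, where Zar1 was above Nlrp2.

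At the two-cell stage, 9 of the 10 genes had higher FPKM in embryos cultured with α-amanitin, Khdc3 being the exception. All 9 passed an adjusted p of 0.05 (limma, 17196 genes tested, 6 against 6 libraries), in a comparison where 8.51% of all genes tested were called lower and 38.9% higher without α-amanitin. Zar1 and Nlrp2 would not have passed the filter on low values without the treated libraries, in which they were high, so their calls carry less weight. Of the 8 genes that reached an FPKM of 1 in at least 3 libraries of each group, 7 were called lower. The rise held for FPKM, a share of the library. Once FPKM were scaled to the spike-in RNAs, 0 of the 10 were called lower and 1, Khdc3, was called higher without α-amanitin, where 1.63% of all genes were lower and 71.4% higher.

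Among the core genes, Nlrp5 showed the clearest separation. Its FPKM was 2.24, 3.79 and 3.85 in NT1 to NT3 and 14.9, 12.3 and 12.6 in Am1 to Am3. It was 3.56, 4.84 and 4.92 in r1, r2 and R3 and 41.6, 19.8 and 37.6 in RAm1 to RAm3. All treated libraries were above all untreated ones, as for 2.95% of all genes tested, and the RAm libraries were above the Am libraries. The untreated mean was 3.87 ± 0.98 (SD, n = 6) and the treated mean 23.1 ± 13.1 (SD, n = 6), a ratio of 5.98. The log2 change was -2.17 ± 0.37 (SE) with an adjusted p of 0.000827 (limma) and an exact permutation p of 0.00216, the smallest that 6 against 6 libraries can give.

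Ooep had an FPKM of 1.69, 1.72 and 3.03 in NT1 to NT3, of 4.62, 4.16 and 6.67 in Am1 to Am3, of 3.43, 5.05 and 4.14 in r1, r2 and R3 and of 19.9, 28.7 and 18.7 in RAm1 to RAm3. Each treated set lay above its own untreated set, while the Am and R sets overlapped. The log2 change over all 12 libraries was -1.57 ± 0.46 (SE), with an adjusted p of 0.0147 by limma. Tle6 spread more within sets, at 2.45, 3.11 and 2.09 in NT1 to NT3, 7.97, 2.73 and 10.1 in Am1 to Am3, 5.16, 4.05 and 1.47 in r1, r2 and R3 and 20.2, 6.03 and 17.8 in RAm1 to RAm3. The libraries Am2 and RAm2 were the lowest of their sets for this gene, and the NT and Am sets overlapped. Its log2 change was -1.38 ± 0.42 (SE), with an adjusted p of 0.0169.

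Khdc3 did not share this pattern. Its FPKM was 1.53, 0.70 and 3.09 in NT1 to NT3, 2.28, 0.39 and 1.11 in Am1 to Am3, 3.18, 4.17 and 4.69 in r1, r2 and R3 and 1.60, 2.68 and 3.03 in RAm1 to RAm3. The R libraries were the highest, above all RAm libraries, a separation that 58.1% of all genes tested showed in that direction, and the NT and Am sets overlapped. Over the 12 libraries the log2 change was 0.42 (95% interval -0.33 to 1.18) with an adjusted p of 0.328 by limma, so no difference was resolved in FPKM. Gm20509, with which it shares exons, was at 60.5 to 70.4 in R and at 5.36 to 7.35 in RAm.

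The partners of the complex were also higher with α-amanitin. Nlrp4f was at 1.79 to 3.89 in NT, 5.07 to 10.6 in Am, 2.47 to 5.52 in R and 30.5 to 41.7 in RAm, and its log2 change of -2.06 ± 0.51 (SE) had an adjusted p of 0.00654 by limma. With Nlrp5 it was 1 of 2 genes of the 10 that passed both the adjusted p and a change of at least 4-fold, which 1.58% of all genes tested did in this direction. Zbed3 was at 7.12 to 11.6 in NT, 25.7 to 42.8 in Am, 17.4 to 33.2 in R and 64.2 to 152 in RAm, with a log2 change of -1.89 ± 0.51 (SE). Padi6 was at 3.38 to 8.89 in NT, 10.6 to 17.2 in Am, 10.8 to 14.9 in R and 27.2 to 58.8 in RAm. For both genes each treated set was higher than its own untreated set, and Am overlapped with R. The adjusted p of Padi6, 0.0378, was the weakest of the called genes and rose over 0.05 in 7 of 12 fits that left out 1 library (NT1, NT2, NT3, RAm1, RAm2, RAm3 or R3), to at most 0.083.

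Nlrp2 and Zar1 were detected best in the RAm libraries. Nlrp2, an Nlrp protein of the oocyte, was at 0.188 to 0.912 in NT, 0.275 to 3.56 in Am, 0.115 to 1.05 in R and 4.62 to 10.2 in RAm, and its log2 change of -1.52 ± 0.45 (SE) had an adjusted p of 0.0148 (limma). Zar1 was at 0.148 to 0.93 in NT, 0.586 to 0.854 in Am, 0.103 to 0.548 in R and 1.78 to 3.36 in RAm. The NT and Am sets overlapped for both genes, and in the 9 libraries outside RAm neither exceeded an FPKM of 3.56. The log2 change of Zar1, -0.87 ± 0.28 (SE), was the smallest of the 9 called genes, with an adjusted p of 0.0229. Zar1 had an FPKM of at least 1 in the 3 RAm libraries only, and Nlrp2 in 5 treated libraries and 1 untreated one.

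Npm2 was the most abundant of the 10 genes in every two-cell library. It was at 24.0, 32.8 and 26.8 in NT1 to NT3, 58.4, 54.6 and 56.5 in Am1 to Am3, 47.3, 50.6 and 37.7 in r1, r2 and R3 and 160, 157 and 181 in RAm1 to RAm3. As for Nlrp5, all treated libraries were above all untreated ones. Means were 36.5 ± 10.8 (SD, n = 6) and 111 ± 60.7 (SD, n = 6), a ratio of 3.05, with a log2 change of -1.43 ± 0.43 (SE) and an adjusted p of 0.0158 by limma.

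**Figure D4:**
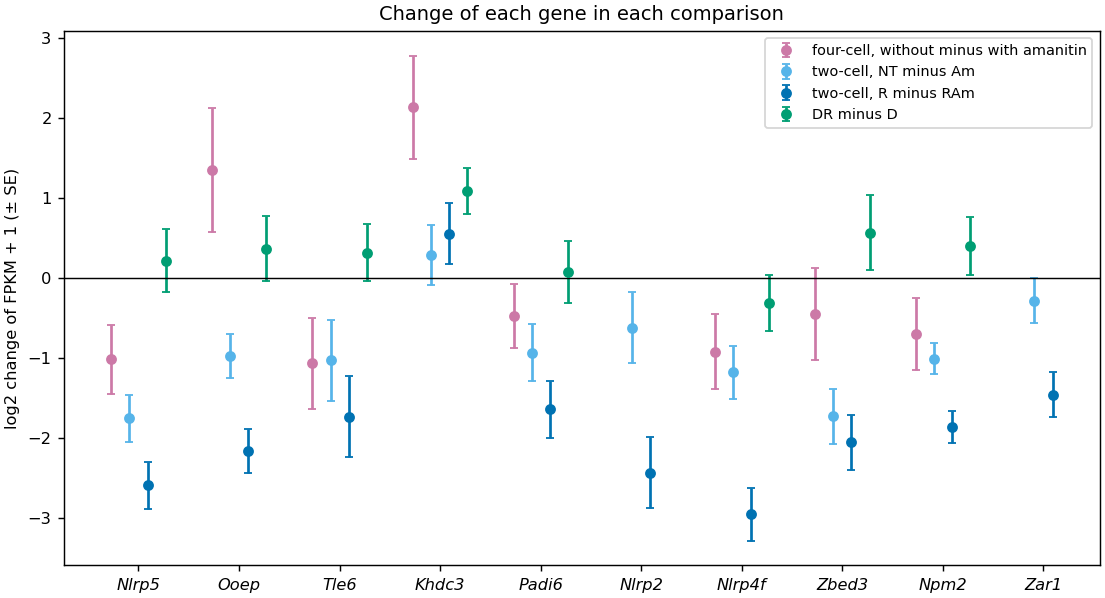
Log2 change of FPKM + 1 with its standard error for each gene, in the four-cell experiment, in the 2 pairs of two-cell column sets (without minus with α-amanitin) and in the replication experiment (DR minus D). On deposited FPKM, Khdc3 is above 0 in all 4 comparisons (its two-cell estimate over 12 libraries turns to -0.19 by median of ratios and its DR minus D estimate to -0.59 by spike-ins), and the other genes lie below 0 in both two-cell comparisons, which for Npm2 and Padi6 turns above 0 between R and RAm by spike-ins. Nlrp2 and Zar1 were not tested in the four-cell and replication experiments.

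The difference between libraries with and without α-amanitin was larger in R and RAm than in NT and Am for several genes. In a fit with the 4 column sets, added after the data were seen, 5 of the 10 genes were called lower in NT than in Am (Nlrp5, Ooep, Nlrp4f, Npm2 and Zbed3), where 4.57% of all genes tested were lower and 13.4% higher, and 9 lower in R than in RAm (7 of 8 without Zar1 and Nlrp2), where 14.0% were lower and 54.9% higher. Ranges were separate for 6 genes between NT and Am (10.4% of all genes tested were separate in that direction) and for 9 between R and RAm, against 15.0%. The difference of these differences was called for Nlrp4f, Ooep and Npm2 among the 8 genes that reached the filter in each group, and 8.46% of all genes tested were called in this direction. It was also called for Nlrp2 and Zar1, which entered the test through the treated libraries where they were high and are not counted. With a pseudocount of 0.1 the call held for Nlrp4f and Npm2 only (adjusted p 0.0245 and 0.0259, limma, beside 6.44% of all genes), and was lost for Zar1, Ooep and Nlrp2 (0.076, 0.0763 and 0.0852). By median of ratios 6 of the 8 were called in this direction, beside 16.7% of all genes, and after scaling to spike-ins 0 were, with Khdc3 called in the other (50.5% of all genes). For Nlrp4f the log2 change was -1.18 ± 0.33 (SE) between NT and Am and -2.95 ± 0.33 (SE) between R and RAm, a difference of -1.77 ± 0.47 (SE) with an adjusted p of 0.00867 by limma. For Nlrp5 both were past the threshold (-1.75 and -2.59), and their difference of -0.84 ± 0.42 (SE) was not (adjusted p 0.126).

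Markers of the donor cells and of the embryo differed between some of these sets, but not as whole lists. The summed FPKM of the 10 donor myoblast markers was 148 to 496 in R and 1171 to 1745 in RAm, which did not overlap, and 944 to 4431 in NT and 2261 to 2493 in Am, which did. Lgals1 made up 69.7% to 88.6% of these sums. Of the 10 markers, 2 were higher in all RAm than in all R libraries and 2 were lower, beside 15.0% and 58.1% of all genes. Among the lower was Col3a1, at 6.68 to 24.4 in R and 0.615 to 1.01 in RAm. The sum of the 10 markers of the preimplantation embryo was 8021 to 9851 in R, 867 to 1472 in RAm, 8861 to 12920 in NT and 6987 to 7932 in Am. Dppa3 made up 76.3% to 95.9% of it. Between R and RAm 6 of these 10 markers were higher in all R libraries, near the 58.1% of all genes tested. In all RAm libraries 2 were higher, beside 15.0%, Bmp15 (3.51 to 11.0 and 107 to 205) and Gdf9 (5.41 to 14.4 and 16.2 to 34.6). Of that list's 3 genes made by the oocyte, these 2 were thus higher in RAm, and Zp3 was higher in R (56.3 to 70.6 and 11.7 to 29.5). The part of any of these cells in the changes of the 10 genes was not tested.

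Between the treated sets, 8 of the 10 genes were higher in RAm than in Am (10.9% of all genes tested), all but Tle6 and Khdc3. Without Zar1 and Nlrp2, which passed the filter through treated libraries, it was 6 of 8. The largest was Nlrp4f, with a log2 difference (RAm minus Am) of 2.23 ± 0.33 (SE), followed by Ooep with 1.93 ± 0.28 (SE). Between the untreated sets R and NT, 0 of the 10 were called by limma, where 1.37% of all genes tested were higher and 1.08% lower in R. Of the 10 genes, Ooep, Khdc3, Padi6, Npm2 and Zbed3 had an unadjusted p under 0.05 there, all higher in R, as had 11.2% of all genes tested, with Zbed3 at 1.31 ± 0.34 (SE). On the spike-in scale described next, 6 genes were called higher in RAm than in Am, beside 5.81% of all genes tested (5 of 8 without Zar1 and Nlrp2), and 6 higher in R than in NT, beside 18.2%. Which set is the early and which the late window is not given in the sources used here.

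Amounts relative to the spike-in RNAs gave another picture. A set volume of a diluted mix of spike-in RNAs was added to each lysate, and spike-ins made up 2.38% to 2.81% of the counted fragments in R, 3.15% to 6.26% in NT, 6.54% to 8.93% in Am and 8.77% to 11.3% in RAm. Treated libraries also had fewer genes with an FPKM of at least 1 (10242 to 13499, against 14026 to 15546). When FPKM were divided by a factor from the 47 spike-ins found in every library, the median log2 change of all genes tested moved from 0.67 to 1.49 and that of the 10 genes from -1.48 to -0.33. In these pools, fewer intact cells and less RNA per cell cannot be told apart.

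On the spike-in scale most of the 10 genes no longer differed beyond the spread. The log2 change of Npm2 was -0.042 ± 0.51 (SE), that of Padi6 0.051 ± 0.54 (SE) and that of Tle6 -0.19 ± 0.42 (SE), with adjusted p values of 0.944, 0.935 and 0.687 by limma. Nlrp5 came closest among the genes that were higher with α-amanitin, at -0.91 ± 0.41 (SE) with an adjusted p of 0.0518. In the fit with 4 column sets it was called in both pairs, at -1.06 ± 0.32 (SE) for NT minus Am and -0.76 ± 0.32 (SE) for R minus RAm (adjusted p 0.019 and 0.0388), where 0.861% and 4.06% of all genes were called lower. With the column set as a term in the fit, the change over all 12 libraries on this scale was also called for Nlrp5 (-0.91 ± 0.22 SE, adjusted p 0.00174) and Nlrp4f (-0.83 ± 0.27 SE, adjusted p 0.011), in a fit that called 3.58% of all genes lower. Within the pairs of sets, Nlrp4f was called on this scale between R and RAm (-1.14 ± 0.38 SE) and not between NT and Am. So was Nlrp2 (-1.23 ± 0.45 SE), which entered the test through the treated libraries where it was high and is not counted.

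Khdc3 was called higher without α-amanitin after spike-in scaling, as were 71.4% of all genes tested, so the call does not set it apart. Its log2 change over the 12 libraries was 1.39 ± 0.41 (SE), with an adjusted p of 0.00653 by limma, and its scaled values were 5.95 to 10.3 in R and 0.77 to 1.66 in RAm. Within the pairs of sets the change was 2.05 ± 0.38 (SE) for R minus RAm and 0.73 ± 0.38 (SE) for NT minus Am, of which the first was called, as were 76.2% of all genes, whose median change there was 2.20. On another scale, the median of ratios over genes, the other 9 genes were again called lower without α-amanitin (14.2% of all genes) and Khdc3 turned to -0.19. The direction of Khdc3 at the two-cell stage was thus not the same on all 3 scales, and at these levels the gene had an FPKM of at most 4.69.

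**Figure D5:**
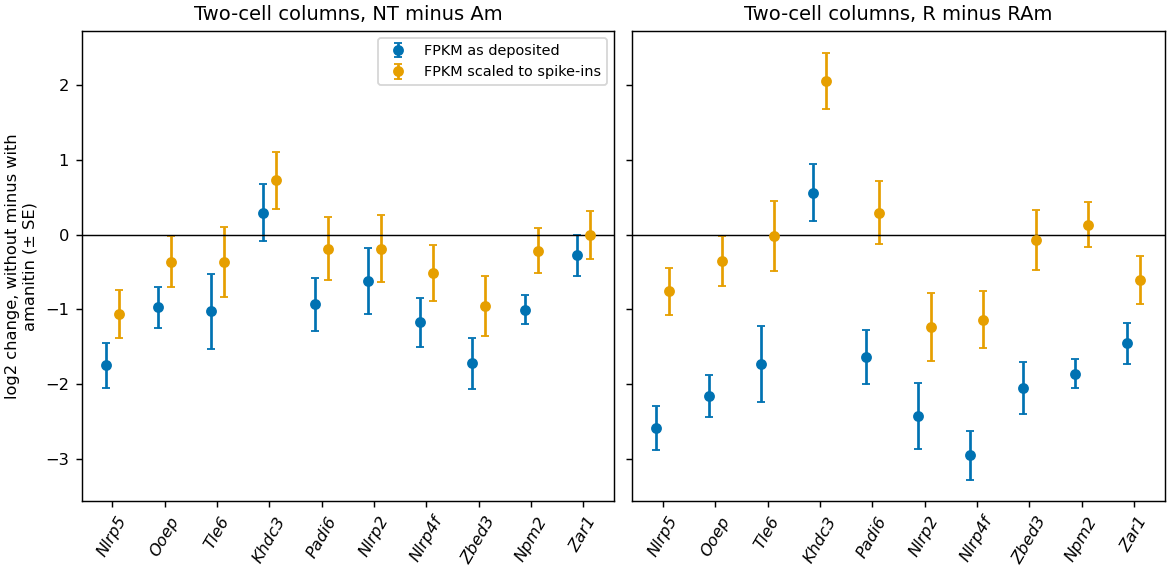
Log2 change of each gene without minus with α-amanitin, with its standard error, for NT and Am (left) and for R and RAm (right), from FPKM as deposited and after scaling to spike-ins. Scaling moves every gene upward, from -1.86 to 0.13 for Npm2 and from 0.56 to 2.05 for Khdc3 in R and RAm.

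In the replication experiment 0 of the 8 genes tested were called between D and DR by limma, and the groups were separate for 1 of them, Khdc3. Its FPKM was 87.3, 110 and 100 in DR1 to DR3 and 55.0, 56.4 and 30.8 in D1, D4 and D5. All DR libraries were above all D libraries, as for 8.21% of all genes tested, so 1 of 8 is near the background. Gm20509, with which it shares exons, was separate in the same way, at 147 to 172 in DR and 80.2 to 114 in D. Means of Khdc3 were 99.1 ± 11.2 (SD, n = 3) and 47.4 ± 14.4 (SD, n = 3), a ratio of 2.09. The log2 change (DR minus D) was 1.09 ± 0.29 (SE), with an unadjusted p of 0.00605 and an adjusted p of 0.788 (limma, 14570 genes tested), and the exact permutation p was 0.1, the smallest possible. Of all genes tested, 0.0% were called at an adjusted p of 0.05 in either direction and 6.16% had an unadjusted p under 0.05. Without D1, the library that stood apart, the log2 change of Khdc3 was 1.22 and that of Nlrp5 turned from 0.22 to -0.025. Again 0 of the genes tested were called.

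For the other 7 genes tested the groups overlapped. The largest estimate among them was that of Zbed3, with an FPKM of 4.89, 8.27 and 3.44 in DR1 to DR3 and of 2.77, 6.46 and 1.64 in D1, D4 and D5, and a log2 change of 0.57 ± 0.46 (SE). Nlrp4f was the 1 gene with a lower mean in DR, at 0.50 to 1.00 against 0.46 to 2.05. Nlrp5, Ooep, Tle6, Padi6 and Npm2 had estimates of 0.078 to 0.40. Nlrp2 and Zar1 had an FPKM of at most 0.595 in these libraries and were not tested. The spike-in share was 0.0448% to 0.493% in DR and 0.0181% to 0.776% in D, and on the spike-in scale the change of Khdc3 turned to -0.59 ± 2.38 (SE).

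The related genes of the oocyte were followed by lists. Of 10 further Nlrp genes of the oocyte, 9 were tested in the two-cell experiment and 7 were called lower without α-amanitin, beside 8.51% of all genes. Their median log2 change was -2.19, beside 0.67 over all genes tested. Nlrp9a had a mean FPKM of 1.70 without and 42.1 with α-amanitin, a log2 change of -3.19 ± 0.72 (SE), and Nlrp14 had 21.9 and 183, a change of -2.83 ± 0.45 (SE). On the spike-in scale 3 of the 9 were called lower (Nlrp9a, Nlrp14 and Nlrp4a, beside 1.63% of all genes) and 1 higher (Nlrp4c, beside 71.4%), and on the median of ratios scale 7 lower, beside 14.2%. At the four-cell stage 3 of them were tested, and Nlrp14 was called lower without α-amanitin, as were 1.13% of all genes, at 6.83 against 31.9 (log2 change -1.98 ± 0.48 SE, adjusted p 0.0328 by limma).

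Of 18 listed paralogs of the 10 genes, 10 were tested in the two-cell experiment, 4 were called higher without α-amanitin (Dppa5a, Npm1, Tle4 and Zbed4), beside 38.9% of all genes, and 1 lower (Khdc1b), beside 8.51%. Their median log2 change was 0.52, and that of all genes tested was 0.67. On the spike-in scale 7 were called higher and 0 lower, beside 71.4% and 1.63% of all genes. By median of ratios 2 were called higher (Dppa5a and Npm1, beside 21.9%) and 2 lower (Khdc1b and Khdc1c, beside 14.2%), and Tle4 and Zbed4 lost their calls (adjusted p 0.0856 and 0.791). Npm1, the nucleophosmin of somatic cells and a relative of Npm2, had a mean FPKM of 911 without and 182 with α-amanitin, a log2 change of 2.88 ± 0.58 (SE) that was called on all 3 scales. Dppa5a, a KH domain gene near Ooep, had 2251 and 753, also called on all 3. Khdc1b was at 66.9 and 265, and its call was lost on the spike-in scale (-0.31 ± 0.53 SE). At the four-cell stage 8 were tested, and Tle4, a relative of Tle6, was called higher (11.1% of all genes were, so 1 of 8 is near the background), at 18.9 against 3.07, a call that was lost on the median of ratios scale (adjusted p 0.0579).

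Of 19 other maternal effect genes, all 19 were tested at the two-cell stage, 5 were called higher and 4 lower without α-amanitin, beside 38.9% and 8.51% of all genes. Their median log2 change was 0.10, beside 0.67 over all genes tested. On the spike-in scale 12 were called higher and 0 lower, beside 71.4% and 1.63%, and by median of ratios 1 higher and 7 lower, beside 21.9% and 14.2%. Btg4, a partner of the deadenylase that degrades maternal mRNA, had a mean FPKM of 24.1 without and 121 with α-amanitin (log2 change -2.01 ± 0.49 SE), and Cnot6l, a deadenylase, 4.43 and 17.9 (-1.71 ± 0.33 SE). Both calls were lost on the spike-in scale, at -0.63 and -0.44. Dppa3, a maternal factor that protects methylation of the zygote, was at 8843 and 4042 (1.77 ± 0.61 SE), a call that was lost on the median of ratios scale (adjusted p 0.0929). At the four-cell stage 0 of the 15 tested were called by limma, with 1 (Dppa3, lower) on the median of ratios scale, and in the replication experiment 0 of the genes of all 3 lists were.

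The genes most like the core were found by Pearson's r between each gene and the mean of Nlrp5, Ooep, Tle6 and Khdc3, on log2(FPKM + 1) centred within each table, over 24 libraries and 8800 other genes that passed the filter in all tables. They were Ppp2r5c (r = 0.899), Uchl1 (0.896), Spast (0.887), Accsl (0.881) and Gm16072 (0.879). Within the tables r was 0.90 to 0.96 for these 5 genes over the two-cell libraries, 0.54 to 0.90 over the four-cell and 0.54 to 0.83 over the replication libraries. Uchl1 is a ubiquitin hydrolase abundant in the oocyte, and Ppp2r5c codes for a regulatory subunit of phosphatase 2A. The 24 points share their tables, and the 12 two-cell libraries also share the difference in spike-in share between sets, so r describes these libraries only. Among the core itself, r between Nlrp5 and Tle6 was 0.84 over the 12 two-cell, 0.93 over the 6 four-cell and 0.50 over the 6 replication libraries. Between Nlrp5 and Ooep it was 0.87, -0.45 and 0.75, and thus of opposite sign in the four-cell libraries. For Khdc3, r to Nlrp5 was -0.11, -0.72 and -0.038 and to Tle6 -0.057, -0.63 and 0.43.

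In the other experiments the summed FPKM of the 10 donor myoblast markers was 183 to 2213 with and 213 to 709 without α-amanitin at the four-cell stage, where the groups overlapped. It was 243 to 358 in DR and 443 to 546 in D, where they did not. With α-amanitin, 9 of the 10 donor markers had the higher mean and 1 was separate, beside 7.56% of all genes tested separate in that direction. The same counts held for D over DR. No share over all genes is given for the means or for D over DR. Lgals1 made up 32.3% to 82.8% of the sum in the four-cell and 59.3% to 78.6% in the replication libraries. The sum of the embryo markers separated the groups in both experiments, at 12942 to 16725 with and 9464 to 10707 without α-amanitin and at 4033 to 4821 in DR and 5258 to 6293 in D. Dppa3 made up at least 82.1% of it. Lgals1 had the highest mean of the donor markers in all 3 experiments, and Col1a1 was at most 0.312. The part of donor mRNA in the levels of the 10 genes was not tested.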

How the data were processed

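The 10 genes and all gene lists were chosen with earlier results of these data known. Full-length cDNA was made by SMART-seq from pools of embryos, with ERCC spike-in RNA added. Per the labels and the methods, the authors filtered and trimmed reads (Trimmomatic, Trim Galore, Cutadapt), mapped them to mm10 with STAR and counted them with featureCounts, for which versions are not given in the sources used here. The authors deposited FPKM, in which gene length and counted total were divided out. Multiplied by length, four-cell values were whole multiples of 1 read (100% within 0.01). In the other files 40.3% to 50.5% were whole, so their depths are approximate. Gene identifiers and bounds of the 10 genes matched GENCODE vM21. In the replication table, 4 columns matched no label and were not used.

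FPKM were tested with limma 3.58.1 (R 4.3.3, lmFit and eBayes with trend) on log2(FPKM + 1), over genes that reached 1 FPKM in 3 libraries or more, spike-ins left out. Adjustment was by Benjamini and Hochberg over all genes tested, and genes were called at an adjusted p under 0.05, with 4-fold as a separate call. Exact permutation tests were two-sided. The procedure was tested on simulated data with 200 changed genes. Of these, 0 were recovered at a log2 change of 1 in any of the 3 comparisons. At a log2 change of 2, 57.5% were recovered for the four-cell, 38% for the two-cell and 70.5% for the replication experiment. In the α-amanitin comparisons far more genes were called than were changed in the simulation, so these shares need not hold there. Alternatives were a pseudocount of 0.1, no filter, scaling by median of ratios and, except in the four-cell table, which lists no spike-ins, by spike-ins, and each library left out. Named genes were the 10 genes, up to 5 called genes per list and the 5 most like the core.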

Additional observations from a re-analysis of the deposited data

Results flagged for a closer look

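The effect of α-amanitin at the two-cell stage differed between the column sets for 5 of the 10 genes, by the limma test of the difference itself (R minus RAm, less NT minus Am, on log2(FPKM + 1)). The difference was -1.81 for Nlrp2, -1.77 for Nlrp4f, -1.19 for Ooep, -1.18 for Zar1 and -0.86 for Npm2, with adjusted p values of 0.0336, 0.00867, 0.0267, 0.0284 and 0.0249, and 8.46% of all genes tested were called in this direction. Zar1 and Nlrp2 would not have passed the filter on low values without the treated libraries in which they were high, which leaves 3 of 8 genes. With a pseudocount of 0.1 only Nlrp4f and Npm2 of the 5 were called (adjusted p 0.0245 and 0.0259, limma), beside 6.44% of all genes. By median of ratios 6 of the 8 were called, beside 16.7% of all genes, and 8 of the 10 with Zar1 and Nlrp2. After scaling to spike-ins the same differences were -1.05, -0.63, 0.0063, -0.60 and 0.35 and none of the 5 passed an adjusted p of 0.05, while that of Khdc3 was 1.33 with an adjusted p of 0.0499. No library of the 20 groups of 6 stood apart from its group by Dixon's test at 95%, where chance gives about 1 in 20. Each group of 6 joined 2 column sets, which differed in level for several genes, so the test could miss a deviant library within a set. It says nothing of the experiments with 3 libraries a group.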

How the results depend on the processing

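Genes called at the four-cell stage (1093 higher, 112 lower without α-amanitin) were 673 and 59 with a pseudocount of 0.1, 275 and 9 without the filter, and 223 lower by median of ratios. At the two-cell stage, 6694 higher and 1464 lower became 3770 and 2440 by median of ratios, 12276 and 281 by spike-ins, 2295 lower with the column set as a term, 1814 and 597 with NT and Am alone, and 2353 lower with R and RAm alone. Of the 10 genes, 9 called lower became 0 by spike-ins (with 1 called higher) and 3 with NT and Am alone. The signs of Khdc3 by median of ratios (-0.19) and of Padi6 by spike-ins (0.051) turned at the two-cell stage. In the replication experiment spike-ins turned Nlrp5 (-0.67), Ooep (-0.57), Tle6 (-0.74), Khdc3 (-0.59), Padi6 (-1.53), Npm2 (-1.13) and Zbed3 (-1.14). The median log2 change of all genes tested there moved from 0.016 to -1.41 as well, and the spike-in factors of D ranged from 0.0945 to 5.65. The cause was not tested. Without the filter, Padi6 (adjusted p 0.0782) and Zar1 (0.0546) lost their calls at the two-cell stage. Leaving out 1 library gave 57 (without S7) to 1362 (without S16) genes higher, 6 to 131 lower and 0 to 1 of the 10 genes higher (Khdc3, without S15) at the four-cell stage, and a log2 change of Zbed3 of -0.86 to 0.041. In the replication experiment it gave -0.084 to 0.46 for Nlrp5 and -0.26 to 0.33 for Padi6. The two-cell replicate numbers did not pair the libraries (r of the deviations 0.015 to 0.065). With a replicate block the calls were 6027 higher and 1344 lower, with 9 of the 10 genes lower. No paired analysis was possible for the four-cell and replication experiments because their columns cannot be matched to the replicate numbers of the labels (the four-cell columns carry other numbers, and the D columns are 1, 4 and 5). Count tests with 2 other tools were planned but not run, since FPKM are not counts, and limma-voom on recovered four-cell reads, chosen after seeing the data, called 1105 higher and 79 lower. Low levels of Zar1 and Nlrp2 and 3 libraries a group limit what could be detected.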
